A study of Homo sapiens with 4 samples.

Results

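The miR-28, miR-151a and miR-708 family was followed through the miRNA profile of HCT116 cells, a human colorectal carcinoma line, with and without induced knockdown of the SUMO E1 subunit SAE2. Its members were chosen by row name in the deposited table, taking every row named miR-28, miR-151a, miR-151b or miR-708, on either strand of the hairpin, which gave 6 of 1345 rows. No measured value entered that choice. These are miR-28-5p, miR-28-3p, miR-151a-5p, miR-151a-3p, miR-151b and miR-708-5p. The family itself was picked for description with results of these data known, so its calls are not independent support for anything. The 5 members other than miR-708-5p had a mean of at least 10 normalised counts over the libraries and were tested.

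All 4 libraries are HCT116 cells that carry an shRNA against SAE2 under doxycycline control, which is the state the groups share. The minus group holds replicate 1 (labelled sh1-minus) and replicate 2 (sh2-minus), and the plus group holds replicate 1 (sh-plus) and replicate 2 (sh2-plus), with minus and plus read as without and with doxycycline. The protocol in the labels gives 3 days of doxycycline for every library, minus ones included, so this reading rests on those words alone, and sh-plus was placed in the sh1 line only by elimination. The shRNAs sh1 and sh2 are independent sequences in separate cell lines. The 2 libraries of a group therefore differ in line as well as in culture. A limma p-value here rests mostly on a variance pooled over miRNAs, with 43.0 prior degrees of freedom added to 2 residual ones. For the strand ratios the pooled variance was taken as known. Such a p-value is therefore no measure of the spread of the lines for a single miRNA or hairpin. No library of doxycycline-treated cells lacking the SAE2 shRNA entered the comparison, so an effect of doxycycline itself cannot be told apart from that of the knockdown, and SAE2 mRNA is not measured by small-RNA libraries.

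A miRNA hairpin yields a 5p and a 3p strand, of which the guide is usually retained in Argonaute while the passenger is degraded, and the bases 2 to 8 of the guide, the seed, pair with target mRNAs. The hairpins of miR-28, miR-151a and miR-708 derive from LINE-2 repeats and share an ancestral stem, and miR-28-5p and miR-708-5p share a seed. In the GENCODE annotation of GRCh38, MIR28 lies in an intron of LPP, a focal adhesion protein gene, MIR151A in an intron of PTK2, which encodes focal adhesion kinase, and MIR708 in an intron of TENM4, each on the strand of its host. MIR151B lies within EVL on the opposite strand. In cancer research miR-151a is known for gain with its host gene and for effects on cell migration, and miR-28 for opposite actions of its strands in colorectal cancer cells.

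The sequences below show how the arms of the family resemble each other, with the seed in capitals. They are from a set of RefSeq sequences on GRCh38, and 2 of the 6 rows matched an entry in that set. miR-28-5p, miR-151a-5p, miR-151a-3p and miR-151b matched none, and the set may not be all of RefSeq. These strands are therefore named only and were not among the sequences searched for a seed.
miR-708-5p: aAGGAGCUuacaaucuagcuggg
miR-3139: uAGGAGCUcaacagaugccuguu
miR-28-3p: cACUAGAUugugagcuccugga
miR-708-3p: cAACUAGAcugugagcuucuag
miR-708-5p (chromosome 11, 79402077 to 79402099, minus strand) and miR-3139 (chromosome 4, 143343469 to 143343491, plus strand) carry the same seed, AGGAGCU. Of the 2370 mature miRNAs in the set these are the 2 that hold its bases 2 to 7 at that position. miR-28-5p, described above as sharing the seed, was not in the set searched. The 3p arms miR-28-3p (chromosome 3, 188688834 to 188688855, plus strand) and miR-708-3p (chromosome 11, 79402032 to 79402053, minus strand) share a run of 8 bases, UGUGAGCU, which starts at base 9 of the first and base 10 of the second. Their seeds differ, with CUAGA beginning 1 base later in miR-708-3p than in miR-28-3p, and no other mature miRNA of the table has the miR-28-3p seed. miR-28-3p and miR-708-5p, from opposite arms of different hairpins, are complementary over 9 bases, CUAGAUUGU in miR-28-3p.

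Normalised counts summed to between 9700472 and 10519207 per library, or about 9578459 to 10300325 reads as estimated from the lowest values. In the markers set for a check of the cell type, the 5 intestinal epithelial miRNAs were all present, from 2736 for miR-192-5p to 135723 for miR-200c-3p. The blood markers miR-451a, miR-486-5p, miR-142-3p, miR-142-5p and miR-223-3p lay between 2.08 and 1014, and of the stromal markers miR-214-3p lay at 1.03 to 4.09 while miR-145-5p reached 7944. Some of these markers moved with the groups as well. Of the epithelial markers 3 of 5 were called higher and none lower (miR-192-5p at a log2 change of 0.78, miR-194-5p at 0.72 and miR-200b-3p at 0.28), and the list summed to 206232 to 207623 in the minus and 234611 to 241808 in the plus libraries. Of the 4 stromal markers tested miR-199a-3p (0.46) and miR-143-3p (0.29) were called higher and miR-145-5p (-0.29) lower, with list sums of 16425 to 16495 and 14095 to 16912. Of the 4 blood markers tested none was called, with list sums of 989 to 1207 and 1021 to 1191. Beside these counts, 13.4% of all 709 tested miRNAs were called higher and 15.1% lower. Among the 190 with a mean of at least 1000, where the epithelial markers lie, 26.8% were called higher and 19.5% lower. Counts from lists this short are therefore no result about a cell type. The part of the marker changes in the family values was not tested.

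The family spanned almost the whole range of the profile. In each of the 4 libraries the order was miR-151a-5p, miR-151b, miR-151a-3p, miR-28-3p, miR-28-5p and miR-708-5p. By mean level in the minus libraries these were ranked 25, 27, 36, 68, 98 and 1075 of 1345 rows. The first 2 did not differ beyond their spread, and every later neighbour in the order was separated by more than its spread in both groups. Without miR-151b, the family summed to 1.55% (replicate 1) and 1.63% (replicate 2) of all normalised counts in the minus group, against 1.79% and 1.80% for the plus group.

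miR-151b, a shorter sequence that repeats the start of miR-151a-5p, stood at 73226 and 78554 normalised counts in the minus and 83512 and 89900 in the plus libraries. miR-151a-5p stood at 73624, 79008, 83881 and 90289 in the same libraries. The rows differed by 398 and 453 normalised counts in the minus and by 369 and 389 in the plus libraries, which is 0.541%, 0.574%, 0.440% and 0.431% of miR-151a-5p. These names are therefore 1 signal in this table, and the 5 tested rows hold 4 signals. Which hairpin, MIR151A or MIR151B, gave the reads cannot be told apart from these values.

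miR-708-5p, the seed partner of miR-28-5p, was at 1.01 and 0.94 normalised counts in minus replicates 1 and 2 and at 0.01 and 1.02 in plus replicates 1 and 2. This is about 1, 1, 0 and 1 reads, under the 3 reads that a count of 0 allows as an upper limit, so no fold change is given. That limit lay between 2.83 and 3.08 normalised counts and covers counting error only. No difference was detectable at this depth.

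**Figure D1:**
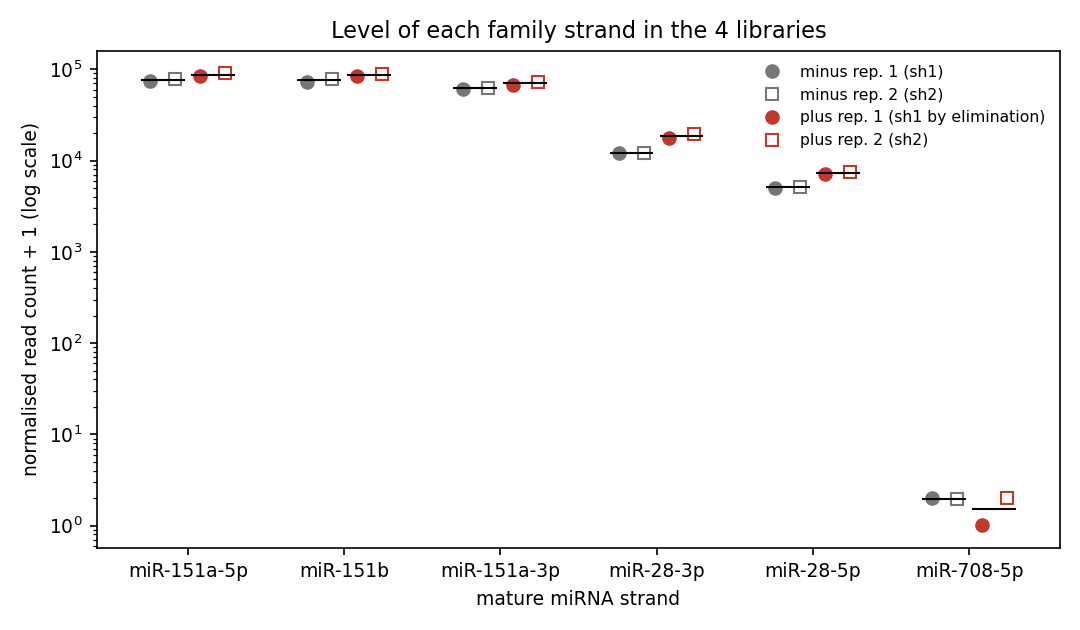
Level of the 6 family strands in each library as normalised read count + 1 (log axis), grey for minus and red for plus, circles for sh1 and open squares for sh2, with horizontal bars at the mean of the 2 libraries of a group. miR-151a-5p and miR-151b overlap, miR-28-3p and miR-28-5p lie higher in both plus libraries, and miR-708-5p lies at about 1 read or none.

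Both strands of miR-28 were higher in the plus libraries. miR-28-3p, the more abundant strand, was at 12079 and 12207 normalised counts in minus replicates 1 and 2 and at 17672 and 19334 in plus replicates 1 and 2. The groups did not overlap, and the gap between them was wider than the difference within either group. Separation of 2 from 2 libraries is weak evidence by itself, here and below. How many of the tested miRNAs and hairpins separate was not counted. From 12143 ± 90.3 to 18503 ± 1176 (SD, n = 2 each), miR-28-3p rose 1.52-fold, with a log2 change of 0.61 and a standard error of 0.084 (limma on log2 of the value plus 1, adjusted p = 2.09e-07). The 95% interval of the fold was 1.35 to 1.71.

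miR-28-5p was at 4998 and 5156 normalised counts in the minus and at 7177 and 7416 in the plus libraries, again without overlap. It rose 1.44-fold, from 5077 ± 112 to 7297 ± 169 (SD, n = 2 each), a log2 change of 0.52 ± 0.088 (SE, limma adjusted p = 9.56e-06). The 95% interval of the fold was 1.27 to 1.63. On the deposited scale the rise was of like size in the lines, 1.436-fold in sh1 and 1.438-fold in sh2. With 1 library per line and condition there was no test. For miR-28-3p the rise was 1.46-fold in sh1 and 1.58-fold in sh2. These comparisons of lines depend on the scaling between libraries. As a share of all normalised counts, miR-28-5p went from 0.0508% to 0.073% in sh1. In sh2 it went from 0.0532% to 0.0705%, a smaller rise. The share of miR-28-3p went from 0.1227% to 0.1797% in sh1 and from 0.1258% to 0.1838% in sh2.

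These 2 strands were the members called among the 5 tested rows (4 signals), and no member was called lower. Over all 709 miRNAs tested, 28.5% were called, 13.4% higher and 15.1% lower. These shares rest on 202 calls, which became 7 or 8 when plus replicate 1 or 2 was left out, 95 or 113 when minus replicate 1 or 2 was, and 101 under quantile normalization. They became 5, with 5 higher and 0 lower, when either the level filter or the trend was dropped, where 159 and 124 were lower at an unadjusted p under 0.05 in limma. Among the 190 with a mean of at least 1000, where the 5 members lie, 26.8% were called higher and 19.5% lower. The median log2 change was -0.03 over all tested miRNAs, 0.06 over the abundant ones and 0.19 over the 5 family rows, of which 2 are 1 signal. Of the abundant miRNAs, 9 had a larger log2 change than miR-28-3p and 12 a larger one than miR-28-5p. The miR-28 calls held without either minus library, and that of miR-28-3p also without plus replicate 1 (limma adjusted p = 0.0432). Without plus replicate 2 the limma adjusted p was 0.0543 for both strands, and without plus replicate 1 it was 0.0697 for miR-28-5p. With no level filter it was 0.0702 for miR-28-3p and 0.0684 for miR-28-5p, and with no mean-variance trend 0.0702 and 0.0806. The prior degrees of freedom were 43.0 in the reported fit. They were 2.80 without plus replicate 1, 2.76 without plus replicate 2, 2.06 with no level filter and 2.23 with no trend. Without either minus library they were infinite, so a miRNA's own spread did not enter those fits.

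**Figure D2:**
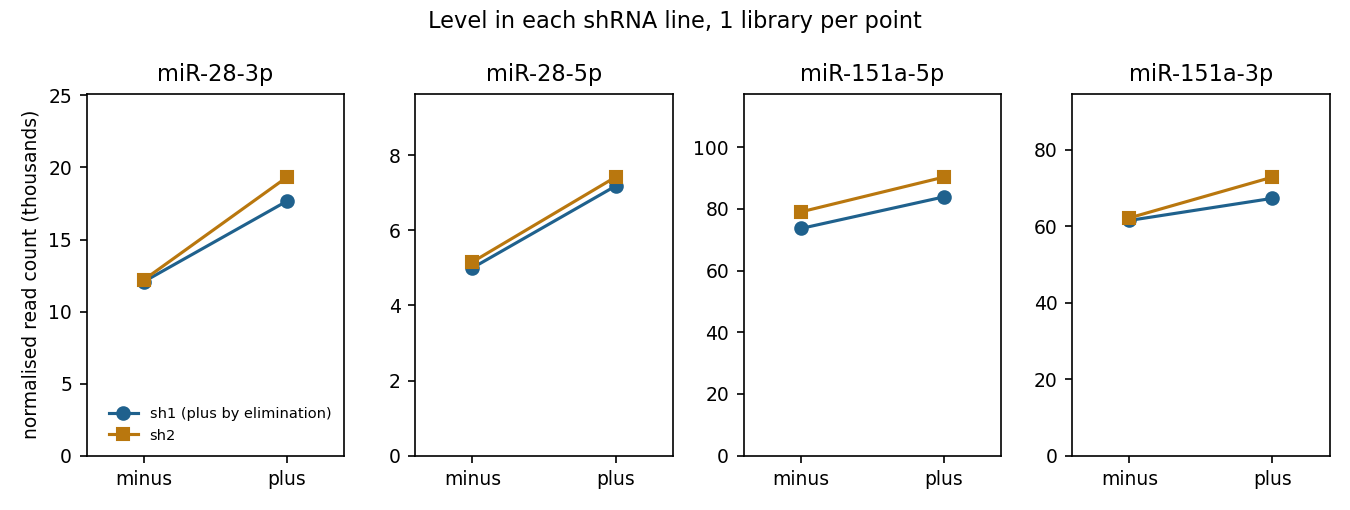
Normalised read count divided by 1000, on an axis from 0, of the miR-28 and miR-151a strands without (minus) and with (plus) induction, joined within each shRNA line (assigned by label or elimination), 1 library per point. Each strand is higher in plus in both lines, by 1.44-fold to 1.58-fold for the miR-28 strands and by 1.09-fold to 1.17-fold for the miR-151a strands.

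The miR-151a strands moved less. miR-151a-5p was at the levels given above, with the lowest plus library (83881) above the highest minus library (79008). This gap was smaller than the difference within either group. The log2 change was 0.19 ± 0.081 (SE), from 76316 ± 3807 to 87085 ± 4531 (SD, n = 2 each), and did not pass (limma adjusted p = 0.0750). With the line as a block it did (limma adjusted p = 0.0439), as did miR-151b, which had an adjusted p of 0.0725 without and 0.0417 with the block. In the block fit the prior degrees of freedom were infinite, so these calls rest on pooled variance alone.

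miR-151a-3p was at 61468 and 62134 normalised counts in the minus and at 67254 and 72805 in the plus libraries. The groups did not overlap, but the gap between them was smaller than the difference within the plus group. The plus libraries were the farther apart. The log2 change of 0.18 ± 0.081 (SE) did not pass (limma adjusted p = 0.0929, and 0.0599 with the block). Under quantile normalization, where values are set by rank, its log2 change was -0.02. The 95% intervals, not adjusted for the number of miRNAs, ran from 1.02-fold to 1.28-fold for miR-151a-5p and from 1.01-fold to 1.27-fold for miR-151a-3p, so a change of the size seen for miR-28-3p lay outside both.

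The 2 hairpins were also compared within each library, a ratio that the scaling between libraries does not touch. miR-28-3p stood at 19.7% and 19.6% of miR-151a-3p in minus replicates 1 and 2 and at 26.3% and 26.6% in plus replicates 1 and 2. miR-28-5p stood at 6.79% and 6.53% of miR-151a-5p in the minus and at 8.56% and 8.21% in the plus libraries. Both ratios were higher in both plus libraries, by 0.43 for the 3p and 0.33 for the 5p strands on the log2 scale. The exact two-sided permutation p was 0.333 for each, the smallest that 2 against 2 libraries can give.

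**Figure D3:**
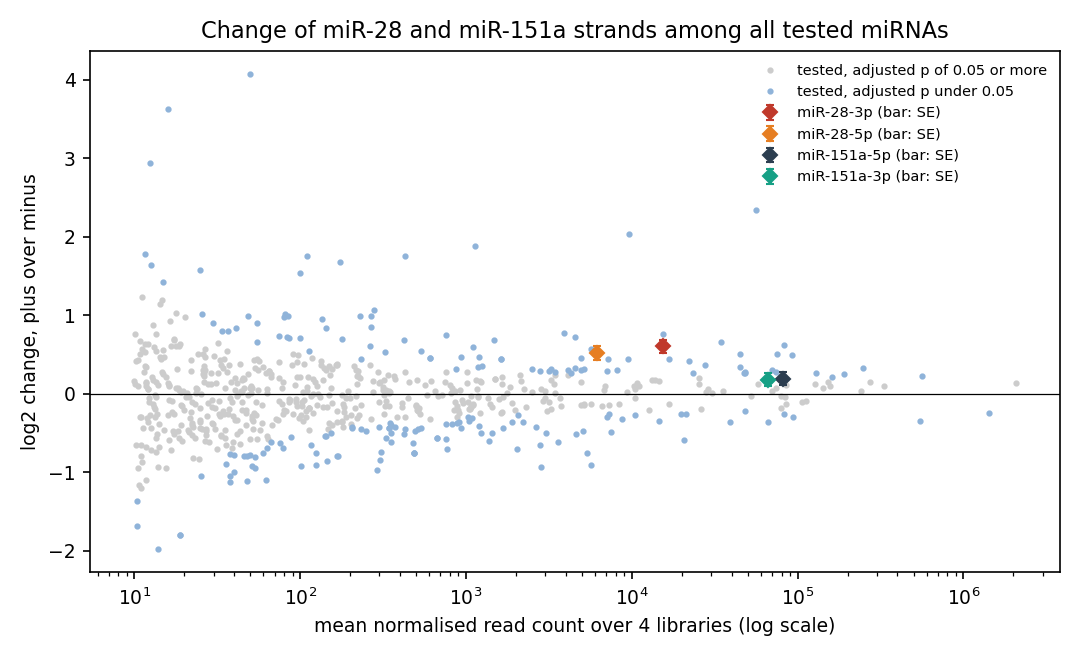
Log2 change, plus over minus, against the mean normalised read count on a log scale, for the 709 tested miRNAs (blue, adjusted p under 0.05; grey, the rest), with 4 family strands as diamonds and their standard errors as bars. The miR-28 strands lie at 0.61 and 0.52 and the miR-151a strands at 0.19 and 0.18, where 0 is no change.

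The strands of miR-28 and of miR-151a were then set against each other. The deposited data have no row for miR-708-3p, and miR-151b is not split by arm, so no other hairpin of the family could be compared. In miR-28 the 3p strand dominated, at 2.42 and 2.37 times the 5p strand in minus replicates 1 and 2 and at 2.46 and 2.61 times in plus replicates 1 and 2. In miR-151a the 5p strand, with the reads shared with miR-151b, was at 1.20 and 1.27 times the 3p strand in the minus and at 1.25 and 1.24 times in the plus libraries. The more abundant row was thus the 3p for miR-28 and the 5p for miR-151a in all 4 libraries. The 5p reads of MIR151A and MIR151B cannot be told apart, so no arm preference of the miR-151a hairpin follows. Ligation of adapters can favour one sequence over another, so the strand values are ratios of counts. The part of ligation in the strand levels was not tested.

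Against the other hairpins, miR-151a was among the more even, while miR-28 lay outside 2-fold but was less uneven than the median hairpin. Of 183 hairpins with a mean of at least 10 on both strands, 102 had more 5p and 81 more 3p, the median ratio of the stronger to the weaker strand was 8.48, and in 40 (21.9%) the strands lay within 2-fold. miR-151a ranked 17 and miR-28 ranked 53 of 183 from the most even. The rank of miR-151a takes its 5p row with the reads shared with miR-151b. It therefore describes the rows and not the hairpin. By the level of the weaker strand, miR-151a ranked 1 and miR-28 ranked 6, so few hairpins had a minor strand as abundant as these.

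The balance between the strands showed no change that passed the test. The 5p share of miR-28 was 29.3% and 29.7% in the minus and 28.9% and 27.7% in the plus libraries. The log2 ratio of 5p to 3p changed by -0.083 ± 0.095 (SE, limma over the 183 hairpins, adjusted p = 0.674), with a 95% interval of -0.27 to 0.103. The groups did not overlap for miR-28, with a lower 5p share in both plus libraries. The gap between them was smaller than the difference within either group. The standard error above is pooled over hairpins and is not the spread of miR-28. The SD of its own log2 ratio was 0.021 for minus and 0.058 for plus (n = 2 each), below the step. The standard error was 0.069 with the line as a block, 0.072 with no level filter and 0.124 with no trend. None of these fits passed (limma adjusted p = 0.544, 0.664 and 0.809).

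The 5p share of miR-151a was 54.5% and 56.0% in the minus and 55.5% and 55.4% in the plus libraries, where the plus values fell between the minus ones. Its log2 ratio changed by 0.011 ± 0.097 (SE, limma adjusted p = 0.961), with a 95% interval of -0.18 to 0.20. The median absolute change over all hairpins was 0.21, and 42 hairpins had a smaller one than miR-28 and 3 a smaller one than miR-151a. In this fit 36 hairpins, 19.7%, were called, against 0 with the line as a block, where 42 had an unadjusted p under 0.05. For 14 of the 183 hairpins, 7.65%, both strands were called higher, and miR-28 is one of them.

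**Figure D4:**
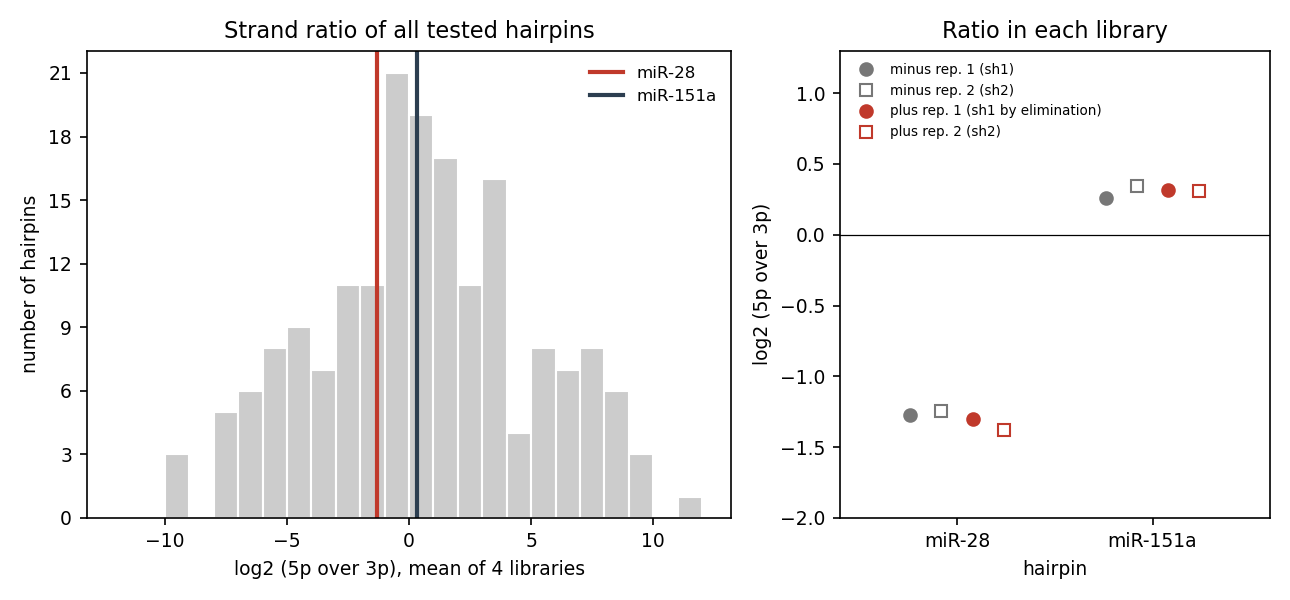
Left, number of hairpins by the log2 ratio of 5p to 3p, averaged over the 4 libraries, for the 183 tested hairpins, with vertical lines at miR-28 and miR-151a; right, the ratio of these 2 hairpins in each library. miR-28 lies below 0 (more 3p) and miR-151a above 0 (more 5p) in every library, and the plus values (red) stay close to the minus values (grey).

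Beyond the family, miR-3139, which shares the seed of miR-708-5p, was below the level needed for the test, with a mean of 8.165. It stood at 9.07 and 14.3 normalised counts in the minus and at 5.17 and 4.12 in the plus libraries, so it was lower in both plus libraries. Estimated reads numbered 24 in minus and 9 in plus, and the plus to minus ratio was 0.378, with a 95% exact binomial (Clopper-Pearson) interval of 0.155 to 0.843, which covers counting error only. It was not tested across libraries, and its level is far under that of miR-28-5p.

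Of 6 other miRNAs described as derived from LINE-2 repeats (miR-95, miR-325, miR-421, miR-493, miR-545 and miR-616), 8 strands were in the table and 4 were tested. One was called higher and none lower, beside 13.4% higher and 15.1% lower over all tested miRNAs, so 1 of 4 is no result about the list. The median log2 change was 0.40 over the 4, beside -0.03 over all tested miRNAs. miR-95 was at 5704 and 6405 normalised counts in the minus and at 7409 and 9135 in the plus libraries, a log2 change of 0.44 (limma adjusted p = 0.000306). With 1 library left out its log2 change ran from 0.29 (without plus replicate 2) to 0.60 (without plus replicate 1). This call was lost without plus replicate 1 (adjusted p = 0.0793), without plus replicate 2 (0.140) and under quantile normalization (0.0873), and in the fits that drop the level filter (0.177) or the mean-variance trend (0.160). miR-421 had a log2 change of 0.17, miR-616-5p of 0.36 and miR-616-3p of 0.43, and none of these passed (limma adjusted p = 0.250, 0.121 and 0.540). With 1 library left out miR-421 ran from -0.0021 (without plus replicate 1) to 0.34 (without plus replicate 2), and miR-616-5p from 0.21 (without minus replicate 1) to 0.52 (without minus replicate 2). miR-616-3p ran from 0.18 (without minus replicate 1) to 0.77 (without plus replicate 2), with 0.68 without minus replicate 2, and was below the level filter without plus replicate 1.

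The miRNAs whose values followed miR-151a-5p, the most abundant member, most closely over the 4 libraries were miR-589-5p, miR-221-3p and miR-222-3p. The root mean square difference of their centred log2 values from those of miR-151a-5p was 0.012, 0.017 and 0.026, the smallest among 704 tested miRNAs outside the family. For comparison it was 0.031 for miR-151a-3p, 0.17 for miR-28-5p and 0.21 for miR-28-3p. With 4 libraries this is a description of likeness only. The 3 were picked as the nearest of 704, so no conclusion is drawn from their lying closer to miR-151a-5p than its partner strand did.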

How the data were processed

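Small RNA of 4 HCT116 libraries was sequenced after column extraction and library preparation with an Illumina kit carrying extra random bases at the 5' adaptor, per the labels' protocols. The authors deposited 1 signal per mature miRNA and library, read here from the values as counts adjusted to a common library size. Trimming with cutadapt is named in the sample titles, and the submitters' processing notes list TopHat2 2.0.8b and edgeR as tools and GRCh37 (hg19) as build, with no order. Which program counted the reads, and against which annotation, is not given in the sources used here. Columns write sh4 where the titles write sh2 and were matched by library number and index.

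The members and lists were chosen with earlier results of these data known. All family rows are named. So are the 3 miRNAs nearest to the top family strand, the tested LINE-2 strands, and the miRNAs with the family seed. That seed was taken from miR-708-5p instead of the planned miR-28-5p. The test was limma 3.58.1 (R 4.3.3) on log2(value + 1), which understates changes of low miRNAs. It ran over the 709 rows with a mean of at least 10, with a mean-variance trend and 43.0 prior degrees of freedom added to 2, two-sided, with Benjamini-Hochberg adjustment at 0.05. Strand ratios were fitted likewise over 183 hairpins, with the prior variance trended on the weaker strand and taken as known. Same-numbered libraries were taken to share a line, from the labels for sh2 and by elimination for sh1. The line differences of the minus and of the plus group had a correlation of 0.056 across the 709 miRNAs, which are not independent replicates. This value gives no sign of shared lines. The block and the values by line therefore rest on the labels and on elimination alone. Alternatives were other pseudocounts, filters, scalings, no trend, a line block and leaving out each library.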

Additional observations from a re-analysis of the deposited data

Results flagged for a closer look

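The 5p to 3p log2 ratio of miR-151a moved opposite ways in the lines, by 0.058 in sh1 and by -0.036 in sh2, a difference of -0.0945 (sh2 minus sh1). The log2 change of miR-616-3p was 1.02 in sh1 and -0.16 in sh2, a difference of -1.18, at 7.06 to 15.37 normalised counts. With 1 library per line and condition, and lines assigned by label or elimination, neither difference was tested. Opposite directions were common, in 66 of 183 hairpins (36.1%) and 190 of 709 miRNAs (26.8%), while all 5 tested family rows (4 signals) were higher in plus than in minus in both lines, as were 242 of 709 miRNAs (34.1%) and 90 of the 190 with a mean of at least 1000 (47.4%).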

How the results depend on the processing

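Over 14 alternatives miR-28-3p and miR-28-5p kept their direction, and with all libraries their log2 changes ran from 0.45 to 0.64 and from 0.47 to 0.55. They missed the threshold at the same log2 changes of 0.61 and 0.52 with no level filter and with no mean-variance trend. With 1 library left out they ran from 0.54 to 0.67 and from 0.50 to 0.55. Of the miR-151a strands, the replicate block (the line) brought miR-151a-5p (0.19) and miR-151b (0.19) past the threshold and changed no other call among the tested family, LINE-2 and most similar miRNAs, the ones fitted under the alternatives. Quantile normalization turned miR-151a-3p to -0.023 (limma adjusted p = 0.457; the range was 0.0599 to 0.457 in the alternatives that keep all libraries). With 1 library left out, miR-151a-3p ran from 0.12 to 0.24, miR-151a-5p from 0.14 to 0.24 and miR-151b from 0.14 to 0.25, and miR-421 from -0.0021 to 0.34. The miR-151a strand ratio ran from -0.032 to 0.054 and that of miR-28 from -0.124 to -0.042. The count of miRNAs called, 202 (95 higher, 107 lower), was 216 with the block. It was 5 (5 higher, 0 lower) with no level filter and with no trend, where 159 and 124 were lower at an unadjusted p under 0.05. It was 101 (47 higher, 54 lower) under quantile normalization. With 1 library left out it ran from 7 to 113, of which 6 to 57 were higher and 1 to 58 lower. Of the called miRNAs, 47.0% were higher, against 38.9% with equal totals and 53.5% under median-ratio scaling. The 36 hairpins called became 0 with no level filter, no trend or the replicate block, where 55, 41 and 42 had an unadjusted p under 0.05, and 0 to 5 with 1 library left out. Depth limits what can be said of miR-708-5p and miR-3139.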
